A study of Homo sapiens with 6 samples.

Results

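The genes described here are 10 targets of the transcription factor p53 that belong neither to the BCL2 family nor to the cyclin-dependent kinase inhibitors: MDM2, DDB2, XPC, RRM2B, BTG2, PLK3, SESN1, TP53INP1, ZMAT3 and GDF15. They were taken by gene name from the 58735 genes of the deposited expression table, and the rule itself used no expression value. Earlier results of these data were known when the genes were chosen, so their counts are not those of a blind choice. Each name matched 1 row, and all 10 were among the 12678 genes tested, which had a mean of at least 1 FPKM over all libraries. FPKM is here a fragment count scaled to the length of the merged exons of a gene and to library size. The study measured poly-A RNA in AGS cells, an established line of human gastric adenocarcinoma cells whose genotype the labels give as wild type in both groups. Cells were transfected with Lipofectamine 2000 and either siNC, the control small interfering RNA, or siRBM8A, which targets RBM8A, and were harvested after 48 hours. Each group had 3 libraries, which the labels call biological replicates, and all 6 carried 1 batch label. The results therefore come from 1 cell line, 1 time point and 1 knockdown, and the sources used here do not state the siRNA sequence.

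p53 is held at a low level in unstressed cells by MDM2, a ubiquitin ligase whose gene p53 itself activates, which closes a negative feedback loop. DNA damage, ribosomal stress and other insults stabilise p53, which then activates genes of DNA repair, growth arrest, metabolic control and cell death. RBM8A, also called Y14, is a core subunit of the exon junction complex. The complex marks exon joints of mature mRNA and takes part in splicing, mRNA export and nonsense-mediated decay. In mice, reduced Rbm8a dosage in neural progenitors is known to activate p53.

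The start regions of 5 of the genes are shown because p53 acts through sites near the start of many of its targets. The 5 include genes that passed and genes that did not pass the test below. Differences in response between them were not tested. RefSeq (GRCh38.p14) gave 15 start windows for 8 of the 10 genes and none for RRM2B and TP53INP1. Each window runs from 250 bases before to 50 bases after an annotated start, 5′ to 3′ on the gene's strand. The motif searched was the p53 response element, made of a pair of decamer units. The decamer reads as its own reverse complement, so that 1 search covers both strands. A full element was counted with at most 13 bases between the units and at most 2 mismatches, none of them at the invariant C or G. Capitals mark the full elements of DDB2 and MDM2 and the single exact decamer of SESN1. The MDM2, DDB2 and SESN1 windows belong to starts inside the annotated genes.
DDB2, chr11:47214724-47215023, plus strand: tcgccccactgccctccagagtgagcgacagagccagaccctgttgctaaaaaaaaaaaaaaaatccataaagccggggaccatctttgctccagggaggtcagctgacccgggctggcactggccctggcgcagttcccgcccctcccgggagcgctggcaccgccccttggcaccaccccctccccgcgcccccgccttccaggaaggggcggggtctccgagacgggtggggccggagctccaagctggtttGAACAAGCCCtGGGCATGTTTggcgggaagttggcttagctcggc
MDM2, chr12:68808767-68809066, plus strand: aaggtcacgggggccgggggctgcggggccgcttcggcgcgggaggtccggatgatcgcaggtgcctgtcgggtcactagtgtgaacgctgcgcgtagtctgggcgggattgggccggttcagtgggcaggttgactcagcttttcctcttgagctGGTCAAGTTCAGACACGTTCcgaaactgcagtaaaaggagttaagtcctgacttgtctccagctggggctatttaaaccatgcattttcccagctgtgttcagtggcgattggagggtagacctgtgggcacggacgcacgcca
SESN1, chr6:109008939-109009238, minus strand: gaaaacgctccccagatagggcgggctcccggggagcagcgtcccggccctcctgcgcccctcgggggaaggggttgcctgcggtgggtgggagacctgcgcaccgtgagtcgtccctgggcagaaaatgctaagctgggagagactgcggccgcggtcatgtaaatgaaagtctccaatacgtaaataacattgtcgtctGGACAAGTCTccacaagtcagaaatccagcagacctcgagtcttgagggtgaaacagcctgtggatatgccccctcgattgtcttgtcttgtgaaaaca
BTG2, chr1:203305269-203305568, plus strand: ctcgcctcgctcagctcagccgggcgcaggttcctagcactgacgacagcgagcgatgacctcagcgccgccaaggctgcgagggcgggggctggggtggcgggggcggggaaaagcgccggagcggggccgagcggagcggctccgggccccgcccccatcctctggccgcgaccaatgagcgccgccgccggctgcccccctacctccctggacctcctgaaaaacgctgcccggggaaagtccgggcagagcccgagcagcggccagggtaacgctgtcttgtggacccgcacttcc
PLK3, chr1:44800127-44800426, plus strand: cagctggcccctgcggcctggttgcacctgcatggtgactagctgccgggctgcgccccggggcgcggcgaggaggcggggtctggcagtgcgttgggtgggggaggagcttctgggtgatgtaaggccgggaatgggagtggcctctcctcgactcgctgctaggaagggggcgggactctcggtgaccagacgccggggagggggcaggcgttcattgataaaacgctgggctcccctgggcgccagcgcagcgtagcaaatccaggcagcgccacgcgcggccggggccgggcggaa

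The DDB2 element, GAACAAGCCCtGGGCATGTTT, had 0 mismatches and 1 base between its units, and it began at position 5 after the start. The MDM2 element, GGTCAAGTTCAGACACGTTC, had 2 mismatches and 0 bases between its units, and it began at position -94 from the start. A nearly identical MDM2 window held the same element at position -101. A full element was found in windows of 2 of the 8 members with a window, and an exact decamer in windows of 2 members, DDB2 and SESN1. Counted by window, 3 of 15 held a full element, of which the MDM2 pair nearly coincide, and 2 of 15 an exact decamer. Among all 35116 RefSeq start windows of the same length, 2.93% held a full element and 6.63% an exact decamer. No match in the BTG2 and PLK3 windows says only that these letters are not within those 300 bases.

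The libraries held 14838527 to 16561306 recovered fragments. RBM8A fell from 14.4 ± 1.08 FPKM (SD, n = 3) to 2.95 ± 0.630 FPKM (SD, n = 3), which was 20.5% of the siNC mean (log2 fold change -1.97, SE 0.142, limma with Benjamini-Hochberg adjustment over all tested genes, adjusted p = 0.00544). The exact two-sided permutation p of RBM8A was 0.1, the smallest that 3 against 3 libraries allow. Part of its exons is overlapped by genes on the opposite strand. Its adjusted p was 0.0544 when siRBM8A replicate 3 was left out, the highest over 19 alternatives. The replicate 2 libraries of both groups stood apart from the others in a way that followed GC content, and values without them are given below. All 6 gastric epithelial markers were above 1 FPKM, with summed levels of 1681 to 2149 FPKM in siNC and 1654 to 2302 FPKM in siRBM8A. Fibroblast markers summed to 3.48 to 4.68 FPKM in siNC and 3.49 to 4.53 FPKM in siRBM8A, with 1 of 5 above 1 FPKM. None of 5 leukocyte and none of 4 endothelial markers was above 1 FPKM. Each of these 3 lists had 1 marker listed at 0 in every library.

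After RBM8A knockdown, 3 of the 10 p53 targets rose: PLK3, DDB2 and BTG2, by 1.45 to 2.00 times on the ratio of mean FPKM. None of the 10 fell in the same limma fit, where 0 had an unadjusted p under 0.05 in that direction and 5 had one upward. Over all 12678 tested genes, 1561 had an unadjusted p under 0.05 upward and 1768 downward. Of all tested genes, 5.59% were called at an adjusted p under 0.05, 2.41% upward and 3.19% downward. The split of these calls, 305 upward and 404 downward, depends on scaling: it was 468 and 325 with libraries scaled to equal FPKM sums and 559 and 456 by limma-voom. The remaining 7 members did not pass the test, and their values pointed both ways. GDF15, XPC and MDM2 had higher means after knockdown, and RRM2B, TP53INP1, ZMAT3 and SESN1 lower means. The median log2 fold change over the 10 members was 0.29, against -0.01 over all tested genes. In 5 members, PLK3, DDB2, BTG2, GDF15 and XPC, every siRBM8A library lay above every siNC library, and in 0 members every one lay below. Over all tested genes 14.8% were separated upward and 16.5% downward. These are levels in bulk RNA, in which a change in every cell and a change in the share of cells that express a gene cannot be told apart.

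**Figure D1:**
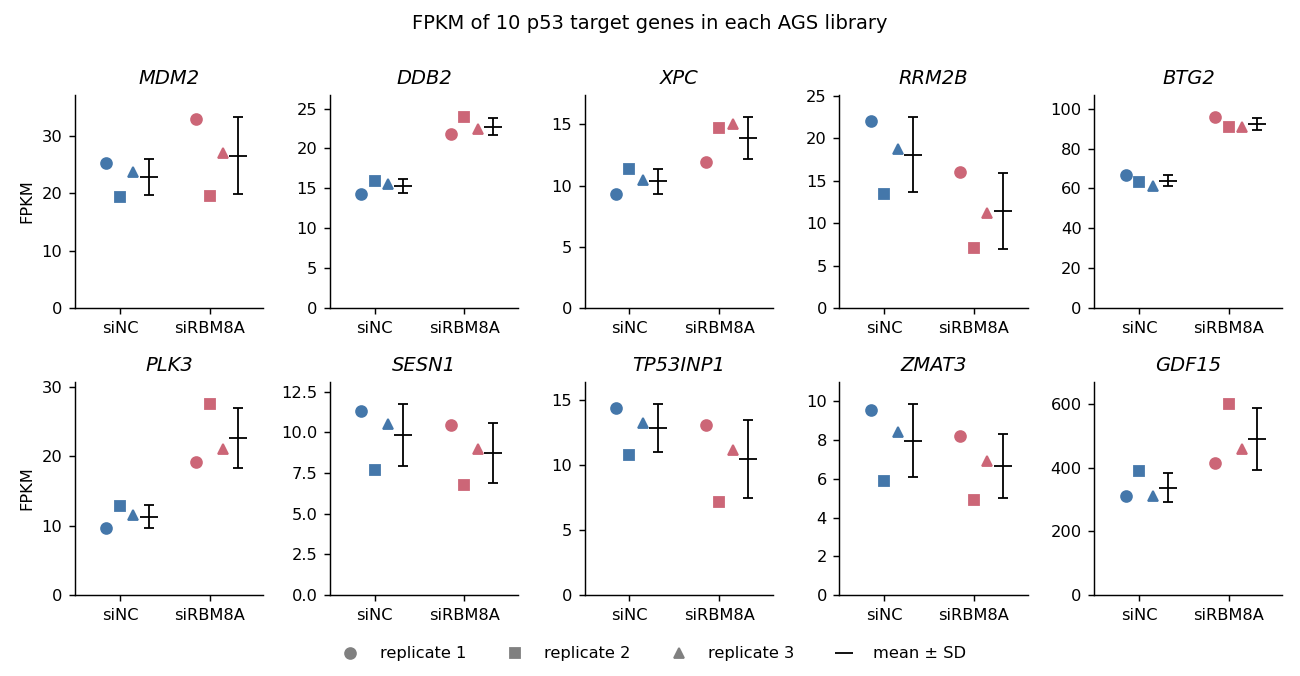
FPKM of the 10 p53 target genes (vertical axes, each from 0) in the 3 siNC and 3 siRBM8A libraries, with the marker shape giving the replicate number and the bars the mean ± SD of 3 libraries. The groups are apart for DDB2, XPC, BTG2, PLK3 and GDF15, and overlap for MDM2, RRM2B, SESN1, TP53INP1 and ZMAT3.

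In siNC libraries the members spanned levels from 7.96 to 338 FPKM. GDF15 stood highest, followed by BTG2 at 63.8 FPKM, and each of these was apart from the next gene in every library. MDM2 at 22.8, RRM2B at 18.1, DDB2 at 15.3, TP53INP1 at 12.8, PLK3 at 11.3, XPC at 10.4, SESN1 at 9.83 and ZMAT3 at 7.96 FPKM followed. The ranges of each neighbouring pair among these 8 genes overlapped between libraries. Within every siNC library, however, MDM2 was above RRM2B, PLK3 above XPC and SESN1 above ZMAT3. The other neighbours changed order between libraries.

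MDM2 (ENSG00000135679, GRCh38 chromosome 12, 68808176 to 68850686, plus strand), the feedback ubiquitin ligase, was at 25.3, 19.3 and 23.8 FPKM in siNC replicates 1, 2 and 3 and at 33.0, 19.6 and 27.1 FPKM in the siRBM8A replicates. The groups overlapped because siRBM8A replicate 2 was as low as siNC replicate 2, while both other siRBM8A libraries were above all siNC libraries. The means were 22.8 ± 3.11 and 26.6 ± 6.71 FPKM (SD, n = 3 each), and the log2 fold change was 0.19 (SE 0.199, 95% interval -0.28 to 0.66, limma adjusted p = 0.591). Left-out libraries moved this value between 0.02 and 0.38. After a correction of each library for GC content, described below, the log2 fold change of MDM2 was 0.32 (adjusted p = 0.0402, and 0.0101 with the replicate number as a block).

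Among the members that act in DNA repair, DDB2 rose and XPC and RRM2B did not pass the test. DDB2 (ENSG00000134574, chromosome 11, 47214465 to 47239240, plus strand) encodes the subunit of the UV-damage recognition complex that binds the lesion. It was at 14.3, 15.9 and 15.6 FPKM in siNC and 21.8, 23.9 and 22.5 FPKM in siRBM8A. The highest siNC library was well under the lowest siRBM8A library, and libraries of 1 group differed little, with coefficients of variation of 5.60% and 4.64%. The mean went from 15.3 ± 0.855 to 22.7 ± 1.05 FPKM (SD, n = 3 each; log2 fold change 0.54, SE 0.0927, 95% interval 0.33 to 0.76, limma adjusted p = 0.0280).

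XPC (ENSG00000154767, chromosome 3, 14145147 to 14178783, minus strand) encodes the damage sensor that starts global-genome nucleotide excision repair. XPC was at 9.30, 11.3 and 10.4 FPKM in siNC and 11.9, 14.7 and 15.0 FPKM in siRBM8A. The groups did not overlap, but siRBM8A replicate 1 was close to siNC replicate 2. The group means were 10.4 ± 1.01 and 13.9 ± 1.71 FPKM (SD, n = 3 each; log2 fold change 0.38, 95% interval 0.09 to 0.68, limma adjusted p = 0.116). With the replicate number as a block the adjusted p of XPC was 0.00644, and after the GC correction the log2 fold change was 0.33 (adjusted p = 0.0159). XPC is uncertain for a further reason. LSM3 and 2 other genes on the opposite strand cover 30.4% of its exon bases, and whether reads were counted by strand is not stated in the sources used here. LSM3 itself was at 10.7 ± 2.87 and 8.82 ± 3.04 FPKM (SD, n = 3 each; log2 fold change -0.27, adjusted p = 0.591, and 0.0248 with the block), lower in all 3 numbered pairs.

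RRM2B (ENSG00000048392, chromosome 8, minus strand), the p53-inducible small subunit of ribonucleotide reductase that supplies deoxynucleotides outside S phase, had the lowest fold change of the 10. RRM2B was at 22.0, 13.4 and 18.8 FPKM in siNC and 16.0, 7.01 and 11.2 FPKM in siRBM8A. The groups overlapped, since siNC replicate 2 was below siRBM8A replicate 1, although each siRBM8A library was below the siNC library of its own number. The group means were 18.1 ± 4.38 and 11.4 ± 4.51 FPKM (SD, n = 3 each; log2 fold change -0.66, 95% interval -1.36 to 0.04, limma adjusted p = 0.214). With the block the adjusted p of RRM2B was 0.00497, and after the GC correction the log2 fold change was -0.42 (adjusted p = 0.0399).

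Both members that act on growth and the cell cycle rose. BTG2 (ENSG00000159388, chromosome 1, 203305491 to 203309602, plus strand) encodes an antiproliferative protein that recruits the CCR4-NOT deadenylase. It was at 66.7, 63.3 and 61.4 FPKM in siNC and 95.6, 90.7 and 90.7 FPKM in siRBM8A. The libraries of each group lay close together and the groups were far apart. The mean went from 63.8 ± 2.69 to 92.3 ± 2.85 FPKM (SD, n = 3 each; log2 fold change 0.53, SE 0.0875, 95% interval 0.32 to 0.73, limma adjusted p = 0.0265).

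PLK3 (ENSG00000173846, chromosome 1, 44800225 to 44805990, plus strand), a stress-responsive polo-like kinase, had the highest fold change of the 10. PLK3 was at 9.63, 12.8 and 11.5 FPKM in siNC and 19.2, 27.4 and 21.0 FPKM in siRBM8A. Every siRBM8A library was above every siNC library, and replicate 2 was the highest of each group. The mean went from 11.3 ± 1.61 to 22.6 ± 4.31 FPKM (SD, n = 3 each; log2 fold change 0.93, SE 0.162, 95% interval 0.55 to 1.32, limma adjusted p = 0.0302). When genes of low level were kept in the test, the adjusted p of PLK3 was 0.0775, and those of BTG2 and DDB2 were both 0.0438. In that fit 0.846% of 31687 genes were called.

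The 3 calls rested on each of several libraries. Without siNC replicate 1, 2 or 3 none of the 10 members was called by limma, although 3, 6 and 3 had an unadjusted p under 0.05. In those fits 0.0947%, 1.04% and 0.0631% of all tested genes were called. An unadjusted p under 0.05 was reached there by 2156, 3284 and 2028 of all 12678 tested genes. Without siRBM8A replicate 3 also none was called, with 4 at an unadjusted p under 0.05 and 0.0158% of all tested genes called. Of all tested genes, 2316 reached an unadjusted p under 0.05 in that fit. Without siRBM8A replicate 1 only PLK3 was called (adjusted p = 0.0450, 3.14% of all tested genes), and without siRBM8A replicate 2 the same 3 genes were (4.95%). The adjusted p of PLK3 reached 0.140, that of DDB2 0.155 and that of BTG2 0.167, each without siNC replicate 3. Their sizes moved little: left-out libraries gave log2 fold changes of 0.79 to 1.03 for PLK3, 0.50 to 0.57 for DDB2 and 0.50 to 0.56 for BTG2. By limma-voom on the recovered fragments, 4 members were called, PLK3, DDB2, BTG2 and GDF15, where 8.01% of all tested genes were.

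The members that act in oxidative and metabolic stress, SESN1 and TP53INP1, did not pass the test. SESN1 (ENSG00000080546, chromosome 6, 108986437 to 109094819, minus strand) encodes sestrin 1, an inhibitor of mTORC1 signalling. It was at 11.3, 7.71 and 10.5 FPKM in siNC and 10.5, 6.79 and 8.99 FPKM in siRBM8A. The groups overlapped almost entirely, with means of 9.83 ± 1.88 and 8.75 ± 1.85 FPKM (SD, n = 3 each; log2 fold change -0.15, 95% interval -0.60 to 0.29, limma adjusted p = 0.642). None of the 19 alternatives called SESN1.

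TP53INP1 (ENSG00000164938, chromosome 8, minus strand), a nuclear protein that promotes p53 activity and also takes part in autophagy, was at 14.4, 10.8 and 13.2 FPKM in siNC and 13.1, 7.17 and 11.1 FPKM in siRBM8A. The groups overlapped, and replicate 2 was the lowest of each. The means of TP53INP1 were 12.8 ± 1.84 and 10.5 ± 3.01 FPKM (SD, n = 3 each; log2 fold change -0.30, 95% interval -0.81 to 0.21, limma adjusted p = 0.421). With the block its adjusted p was 0.0462, and with the block and the GC correction together it was 0.173.

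ZMAT3 (ENSG00000172667, chromosome 3, 179017223 to 179072279, minus strand), a zinc finger protein that binds RNA and regulates splicing, was at 9.57, 5.90 and 8.41 FPKM in siNC and 8.20, 4.93 and 6.92 FPKM in siRBM8A. The groups overlapped, with replicate 2 again the lowest of each. The means were 7.96 ± 1.87 and 6.68 ± 1.65 FPKM (SD, n = 3 each; log2 fold change -0.22, 95% interval -0.73 to 0.29, limma adjusted p = 0.553). With the block the adjusted p of ZMAT3 was 0.0243, and with the block and the GC correction together it was 0.527.

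GDF15 (ENSG00000130513, chromosome 19, 18374731 to 18389176, plus strand), a secreted cytokine of the TGF-beta superfamily made by stressed cells, was the most highly expressed member. GDF15 was at 311, 392 and 311 FPKM in siNC and 415, 599 and 458 FPKM in siRBM8A, from 10784 to 20284 recovered fragments. Every siRBM8A library was above every siNC library, and replicate 2 was the highest of each group. The group means were 338 ± 46.6 and 491 ± 96.2 FPKM (SD, n = 3 each; log2 fold change 0.53, 95% interval 0.13 to 0.92, limma adjusted p = 0.108). The block brought the adjusted p of GDF15 to 0.00291, limma-voom to 0.0491 and the removal of both replicate 2 libraries to 0.0236.

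**Figure D2:**
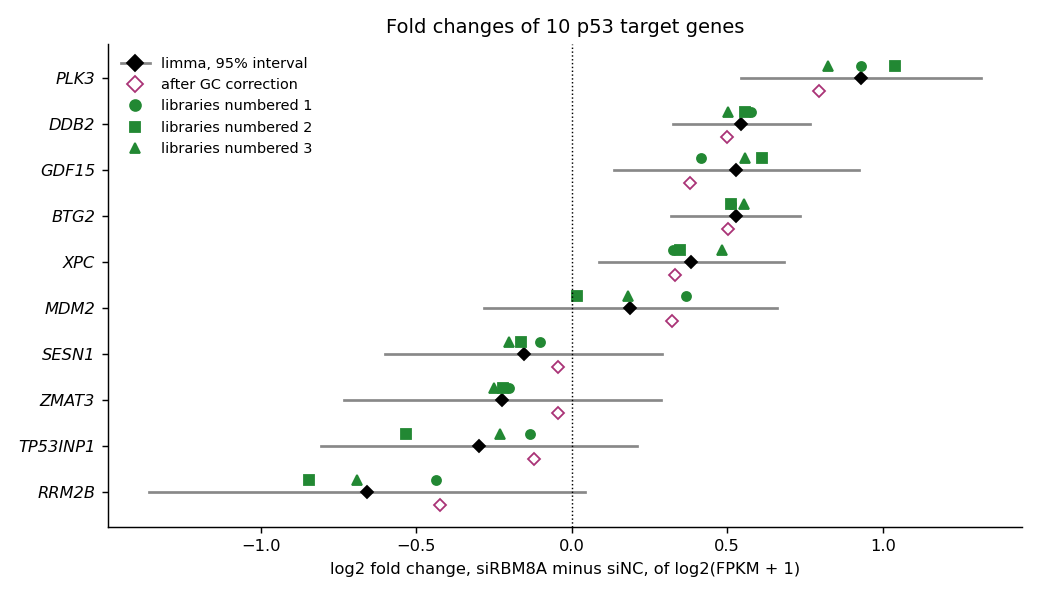
Log2 fold changes of log2(FPKM + 1), siRBM8A minus siNC, for the 10 genes: black diamonds with grey bars are limma estimates with 95% intervals, open diamonds the estimates after GC correction, and green symbols the log2 differences between the libraries of 1 replicate number. All 3 numbered differences of each gene share a sign, positive for 6 genes and negative for 4, and the GC correction brings SESN1 to -0.05 and ZMAT3 to -0.04.

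Libraries of the same number deviated together from their group means, weakly for number 3 (correlation 0.102, below the 0.258 of siNC replicate 3 with siRBM8A replicate 1), and each of the 10 members moved in 1 direction in all 3 numbered pairs. Over all tested genes 68.2% did so, 32.4% upward and 35.8% downward. By limma the replicate block called 8 members, PLK3, DDB2, BTG2, GDF15 and XPC upward and RRM2B, TP53INP1 and ZMAT3 downward. That fit called 40.2% of all tested genes, 18.9% upward and 21.3% downward. With the block, MDM2 had an adjusted p of 0.102 and SESN1 of 0.0664. The block takes the replicate numbers as pairs, which these correlations do not establish for number 3.

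Apart from MDM2, the members with higher means after knockdown had transcripts of higher GC content than those with lower means. The GC content of the longest transcript was 50.3% in BTG2, 51.9% in DDB2, 52.5% in XPC, 61.2% in PLK3 and 62.9% in GDF15, which are the 5 genes with separated groups. It was 36.4% in RRM2B, 39.5% in ZMAT3, 39.6% in TP53INP1, 41.9% in MDM2 and 43.4% in SESN1. Over all 4904 tested genes between 50.3% and 62.9% GC, the median log2 fold change was 0.09, 3.75% were called upward and 2.43% downward. In comparison, over all 3289 tested genes between 36.4% and 43.4% GC, the median was -0.16, 1.00% were called upward and 3.22% downward. The higher range was set by the 5 genes with separated groups, so their place above its median follows in large part from that choice. The lower range was set by the other 5 members. There MDM2 lay above the median and RRM2B below it, while SESN1 at -0.15, ZMAT3 at -0.22 and TP53INP1 at -0.30 were nearer to it. Both ranges are wide, and the median of all tested genes also changed with GC content inside them.

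Replicate 2 also followed GC content. In the higher range its log2(FPKM + 1) exceeded the mean of replicates 1 and 3 by a median of 0.21 in siNC and 0.27 in siRBM8A. In the lower range the same difference had a median of -0.26 in siNC and -0.37 in siRBM8A. Among the members it ran from -0.57 in siNC and -0.85 in siRBM8A for RRM2B to 0.33 and 0.46 for GDF15. BTG2 was nearly free of it, with -0.02 and -0.04. Without both replicate 2 libraries, PLK3 (log2 fold change 0.88, limma adjusted p = 0.0159), DDB2 (0.54, 0.0210), BTG2 (0.53, 0.0210) and GDF15 (0.49, 0.0236) were called, while 14.4% of all tested genes were. RRM2B was then at -0.56 (adjusted p = 0.0878), XPC at 0.40 (0.0927) and MDM2 at 0.27 (0.153).

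After a lowess correction of each library for GC content, 7 members were called by limma, where 32.2% of all genes were. PLK3 had a log2 fold change of 0.80 (adjusted p = 0.000394), DDB2 of 0.50 (0.000742), BTG2 of 0.50 (0.00219) and GDF15 of 0.38 (0.00188), and XPC and MDM2 were also called upward and RRM2B downward. TP53INP1 at -0.12, SESN1 at -0.05 and ZMAT3 at -0.04 stayed uncalled. The same 7 genes were called with the block added, where 41.0% of all genes were. The correction also removes any change of transcript level that itself follows GC content.

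**Figure D3:**
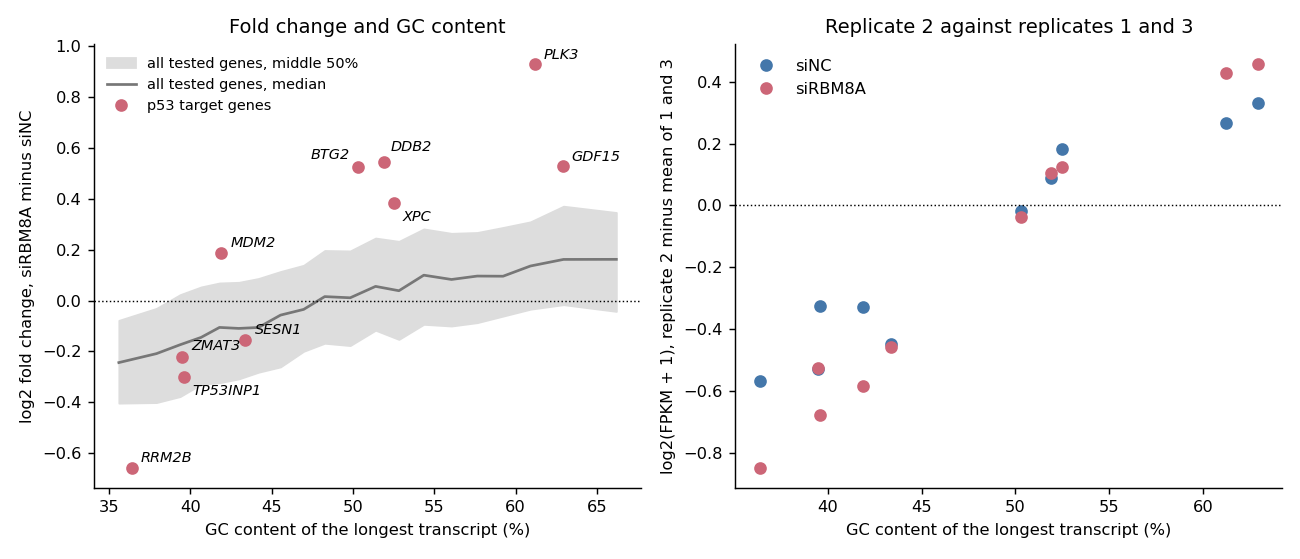
Left, log2 fold change (siRBM8A minus siNC) against GC content of the longest transcript (%), with the 10 p53 targets as points and the median and interquartile range of all tested genes in bins of GC content as a line and a band. Right, log2(FPKM + 1) of replicate 2 minus the mean of replicates 1 and 3 against GC content for the same genes, which runs from -0.57 and -0.85 (siNC and siRBM8A) for RRM2B to 0.33 and 0.46 for GDF15.

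In a wider list of 39 p53-activated genes 33 were tested. By limma 3 rose, BBC3, GADD45A and PMAIP1, and 0 fell. At an unadjusted p under 0.05 there were 8 upward and 6 downward, against 1561 and 1768 of all 12678 tested genes. Over the 33 genes the median was 0.12 on the log2 scale. The siRBM8A libraries lay above all siNC libraries in 9 of them and below all in 7, against 14.8% and 16.5% of all tested genes. BBC3, the proapoptotic BH3-only protein PUMA, was at 31.4, 45.4 and 33.1 FPKM in siNC and 66.8, 94.6 and 68.0 FPKM in siRBM8A. Its groups were far apart (log2 fold change 1.04, SE 0.192, limma adjusted p = 0.0326). GADD45A, a growth-arrest and DNA-damage protein, rose from 30.1 ± 3.37 to 50.5 ± 5.72 FPKM (SD, n = 3 each; log2 fold change 0.72, adjusted p = 0.0304). PMAIP1, the BH3-only protein NOXA, rose from 7.30 ± 0.448 to 10.9 ± 0.612 FPKM (SD, n = 3 each; log2 fold change 0.52, adjusted p = 0.0310). GADD45A and PMAIP1 were each called in 1 of the 6 fits that left out 1 library, the one without siRBM8A replicate 2, and BBC3 in 2, those without siNC replicate 2 and without siRBM8A replicate 2. With genes of low level kept in the test, all 3 calls were lost (adjusted p = 0.0926 for BBC3, 0.0707 for GADD45A and 0.0594 for PMAIP1). With the block 15 genes of the list were called upward and 8 downward, where 18.9% and 21.3% of all tested genes were.

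CDKN1A, the cell cycle inhibitor p21 and the best known p53 target, did not pass the test and had a lower mean. It was at 196, 243 and 214 FPKM in siNC and 171, 210 and 178 FPKM in siRBM8A. The groups overlapped, since siRBM8A replicate 2 was above siNC replicate 1. The means were 218 ± 23.5 and 186 ± 21.1 FPKM (SD, n = 3 each; log2 fold change -0.22, limma adjusted p = 0.309). With the block the adjusted p of CDKN1A was 0.0125, and GC correction moved the log2 fold change to -0.33 (adjusted p = 0.00290).

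Of 23 regulators of p53, 20 were tested, 1 rose and 1 fell, and the median log2 fold change was 0.05. PPM1D, the phosphatase WIP1 that dampens p53 signalling and is itself a p53 target, was at 5.13, 5.12 and 5.05 FPKM in siNC and 7.997, 7.002 and 7.44 FPKM in siRBM8A. The siNC libraries were nearly equal and all siRBM8A libraries were higher (log2 fold change 0.47, SE 0.0900, limma adjusted p = 0.0354). TP53BP1, the DNA double-strand break protein 53BP1, fell from 6.82 ± 0.120 to 4.52 ± 0.111 FPKM (SD, n = 3 each; log2 fold change -0.50, adjusted p = 0.0273). A gene on the opposite strand covers 28.7% of the exon bases of TP53BP1, which makes its value uncertain. PPM1D and TP53BP1 were called in 1 of the 6 fits that left out 1 library, the one without siRBM8A replicate 2, and PPM1D was not called with genes of low level kept (adjusted p = 0.0710). MDM4, the MDM2 relative that inhibits p53 transactivation, was at 4.61 ± 0.618 and 5.86 ± 1.57 FPKM (SD, n = 3 each; log2 fold change 0.27, adjusted p = 0.410, and 0.39 with adjusted p = 0.0200 after the GC correction).

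None of 12 cell cycle genes that p53 represses through the DREAM complex was called by limma or by limma-voom. Here 7 had an unadjusted p under 0.05 in limma, all downward, and 4 in limma-voom. Of all 12678 tested genes, 1768 had one downward in limma and 1523 in limma-voom. The median log2 fold change of the 12 genes was -0.34, and 11 of 12 were lower in all 3 numbered pairs, as were 35.8% of all tested genes. The siRBM8A libraries lay below all siNC libraries in 7 of the 12 genes and above them in 1, against 16.5% and 14.8% of all tested genes. CCNB1, the mitotic cyclin B1, was at 67.1 ± 4.45 and 49.1 ± 3.46 FPKM (SD, n = 3 each; log2 fold change -0.44, adjusted p = 0.0550). ECT2, an exchange factor of cytokinesis, was at 25.9 ± 6.33 and 10.8 ± 4.31 FPKM (SD, n = 3 each; log2 fold change -1.22, adjusted p = 0.0655). With the block 9 of the 12 were called downward, against 21.3% of all tested genes, CCNB1 with an adjusted p of 0.00227 and ECT2 with 0.00175.

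Among 14 partners of DDB2 and XPC in nucleotide excision repair, 13 were tested, 0 rose and 1 fell by limma, and the median log2 fold change was 0.03. ERCC3, the XPB helicase of TFIIH, fell from 8.97 ± 0.497 to 6.19 ± 0.578 FPKM (SD, n = 3 each; log2 fold change -0.47, adjusted p = 0.0465, 0.0522 without the variance trend and 0.0960 with genes of low level kept). ERCC3 was called in 1 of the 6 fits that left out 1 library, the one without siRBM8A replicate 2.

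Most relatives of the members did not pass the test. Of 15 genes of the same families 14 were tested, 0 rose and 1 fell by limma, and the median log2 fold change was -0.06. TP53INP2, the relative of TP53INP1 that acts in autophagy, was at 11.1, 13.5 and 10.6 FPKM in siNC and 4.87, 5.16 and 5.40 FPKM in siRBM8A. Its groups were far apart (log2 fold change -1.04, SE 0.113, limma adjusted p = 0.0108), and it lost the call without siNC replicate 1 (0.0565), siNC replicate 3 (0.0909) or siRBM8A replicate 3 (0.0854). Of the BTG family, BTG1 had a log2 fold change of 0.51 (adjusted p = 0.0693, and 0.00356 with the block) and TOB2 of 0.48 (0.0688, and 0.00273 with the block), while BTG3 was at 0.08 and TOB1 at -0.04. Of the polo-like kinases, PLK1 was at -0.13 (adjusted p = 0.539), PLK2 at 0.10 (0.515) and PLK4 at -0.50 (0.165, and 0.0128 with the block). The sestrin SESN2 was at 0.29 (0.220, and 0.00729 with the block), and SESN3 was below the level filter. The ribonucleotide reductase subunits RRM1 and RRM2 were at -0.07 (0.784) and -0.13 (0.725), and the zinc finger relatives ZMAT2 and ZMAT5 at -0.15 (0.460) and -0.09 (0.772).

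GDF15 is also a known target of ATF4 and CHOP, stress factors that can act without p53. Of 9 regulators of that response 7 were tested, 1 rose and 0 fell by limma, and the median log2 fold change was 0.34. DDIT3, which encodes CHOP, rose from 4.54 ± 0.587 to 12.97 ± 0.597 FPKM (SD, n = 3 each; log2 fold change 1.34, adjusted p = 0.00709). Opposite-strand genes cover 31.6% of its exon bases, and the call was lost without siNC replicate 1 (0.0524) or siRBM8A replicate 3 (0.0716). With the block 5 of the 7 were called, all upward, where 18.9% of all tested genes were called upward. The part of DDIT3 in the levels of the members was not tested.

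**Figure D4:**
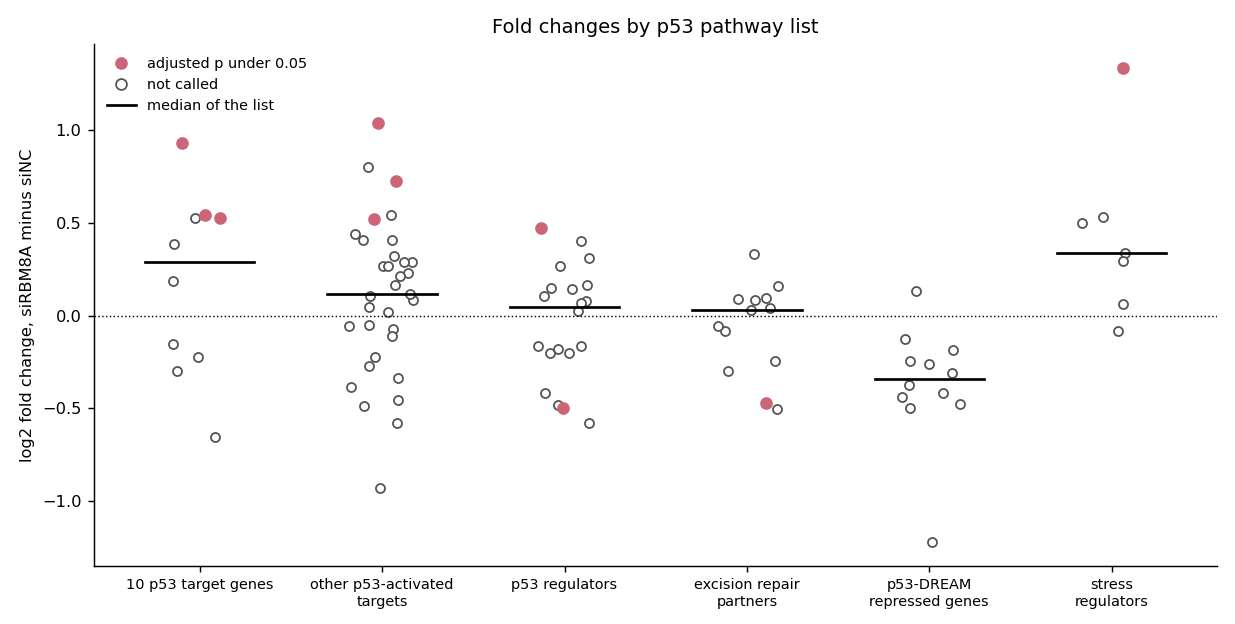
Log2 fold change (siRBM8A minus siNC) of each tested gene by p53 pathway list, with filled points at an adjusted p under 0.05, open points otherwise, and a line at the median of each list. The medians run from -0.34 in the p53-DREAM repressed genes to 0.34 in the stress regulators, with 0.29 in the 10 p53 target genes.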

How the data were processed

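Poly-A RNA of 6 AGS cultures was sequenced, and the authors deposited 1 table of FPKM per gene and library. HISAT2, StringTie and GRCh38 are listed, per the submitters' processing notes. The sources used here state no versions, strandedness, filters or handling of multiply matching reads. Groups follow the sample titles.

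All 58735 gene identifiers matched GENCODE 29, which gave coordinates and exon lengths. Each FPKM times the union exon length and a divisor found per library was a whole number of fragments (tolerance 0.001). The recovered fragments gave the depth per library and 1 alternative test. Intervals and depths cover counting and replicate error only.

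Values were transformed to log2(FPKM + 1), genes averaging under 1 FPKM were left out, and the two-sided main test was limma (version 3.58.1, R version 4.3.3) with its variance trend. Benjamini-Hochberg adjustment ran over all 12678 genes and calls were made at 0.05. The added 1 FPKM makes fold changes of weakly expressed genes smaller than those of the FPKM themselves. The 19 alternatives changed the pseudocount, filter, scaling, variance trend, replicate block or GC content (lowess span 0.3), left out libraries, or used limma-voom. The GC correction, limma-voom (each also with the block) and the removal of both replicate 2 libraries were added after seeing the data.

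Replicate numbers are shared between the groups by their titles. Deviations from the group means correlated by 0.507, 0.663 and 0.102 across all tested genes between libraries numbered 1, 2 and 3. Across numbers, siNC 3 and siRBM8A 1 reached 0.258 and siNC 1 and siRBM8A 3 reached 0.187. All same-number values were above 0.1, and the numbers were taken as pairs. Deviations within a group cancel out, so a shift shared by both replicate 2 libraries alone makes the values among numbers 1 and 3 positive. The check therefore cannot show that the libraries numbered 3 belong together. Pairing comes from this check and not from a stated shared culture or day.

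The text names all 10 members, RBM8A, MDM4 and CDKN1A, the measured family members, and from each other list up to 6 called genes of lowest adjusted p or, with none called, the 2 of lowest p. A gene that the rule also names is not reported here. LSM3 was added because it overlaps XPC. The members and lists were chosen with earlier results of these data known. Start windows were RefSeq sequences. Tables and plots used Python 3.11.15, pandas 2.3.3, numpy 2.4.6 and matplotlib 3.10.9.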

Additional observations from a re-analysis of the deposited data

How the results depend on the processing

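Of the alternative values of single named genes, 553 kept direction and side of the threshold, 62 gained and 56 lost significance, and 12 reversed. No member reversed. Counts of calls are given in the order members, p53 regulators, other p53 targets, excision repair partners, family members, stress regulators and all genes, after 3, 2, 3, 1, 1, 1 and 709 in the main setting. The DREAM-repressed genes, 0 in the main setting, come last. The replicate block gave 8, 9, 23, 5, 5, 5, 5096 and 9. GC correction gave 7, 8, 19, 3, 7, 4, 4075 and 9, and with the replicate block 7, 10, 24, 2, 7, 5, 5190 and 9. Limma-voom gave 4, 2, 4, 1, 2, 2, 1015 and 0, and with the replicate block 9, 14, 25, 6, 6, 5, 6145 and 10. Leaving out both libraries numbered 2 gave 4, 5, 10, 2, 3, 3, 1827 and 4. No filter on low values gave 2, 1, 0, 0, 1, 1, 268 and 0, a mean of at least 5 FPKM 3, 2, 4, 1, 1, 1, 574 and 1, and equal FPKM sums 3, 2, 4, 1, 2, 2, 793 and 0. Dropping the variance trend left 0 excision repair partners called. Equal FPKM sums also moved the split of all calls from 305 up and 404 down to 468 up and 325 down. Leaving out 1 library at a time gave 0 to 3 members, 0 to 2 regulators, 0 to 3 other targets, 0 to 1 repair partners, 0 to 2 family members, 0 to 1 stress regulators, 0 DREAM-repressed genes and 2 to 628 genes in all. These fits have fewer libraries, but leaving out siRBM8A replicate 2 left 628 and leaving out siRBM8A replicate 3 left 2. Leaving out both libraries numbered 2 gave 1827, and the part of the number of libraries was not tested. The reversed values were small. BTG3 ran from -0.10 to 0.32 over left-out libraries, with -0.03 without siNC replicate 2. RRM1 ran from -0.14 to 0.059, and was at 0.0015 without both libraries numbered 2 and 0.0376 after GC correction, with or without the block. RRM2 ran from -0.28 to 0.0539 and ZMAT5 from -0.18 to 0.0427, with 0.0262 without siNC replicate 2. TOB1 was at 0.0040 with equal FPKM sums and 0.0884 after GC correction, with or without the block. Where no construction of the alternative accounts for a move, the cause was not tested. The replicate block changed the calls printed beside its values and, among the other named genes, no further call. The members rest on 557 to 20284 recovered fragments per library, and 3 libraries a group limit the precision of every value.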
